A study of Mus musculus with 6 samples.

Results

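Transcripts of 10 genes of 3 paracrine growth factor axes were followed in the mouse anterior prostate, namely the ligand genes Fgf2, Fgf7, Fgf10, Igf1 and Hgf, and the receptor genes Fgfr1, Fgfr2, Fgfr3, Igf1r and Met. They were chosen by name as the fibroblast growth factor (FGF), insulin-like growth factor (IGF) and hepatocyte growth factor (HGF) ligands and receptors that stroma and epithelium use to signal to each other, and they make up 10 of the 55076 rows of the expression tables. Anterior prostates of 20-week-old male mice were profiled by bulk RNA sequencing in 3 mice labelled N1ICD-Oex (OEx) and 3 control mice (Ctrl). The OEx mice carried Pbsn-Cre and the Rosa26 N1ICD allele, so that Cre, driven by the probasin promoter in prostate epithelium, switched on the Notch1 intracellular domain. The labels call the Ctrl mice Wild type, whereas the study's methods describe its controls as carrying the Rosa26 N1ICD allele without Cre. Because the transgene is driven in epithelium and whole tissue was sequenced, a ligand made by stroma was read in a mixture of cells, and fewer cells of a type and less RNA per cell cannot be told apart.

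In the prostate, androgen-responsive stroma makes FGF7 and FGF10, which act on the FGFR2 form of epithelial cells, while FGF2 acts mainly through FGFR1 on stromal and other cells. IGF1 signals through IGF1R to growth and survival pathways. HGF is secreted by mesenchymal cells as an inactive precursor, is cut by serine proteases and then binds MET on epithelium.

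The libraries held 14772005 to 18655462 reads, recovered from the deposited FPKM values (fragments per exon length and a total for the library). Those totals were not the recovered reads, being 1.22 to 1.34 times the reads in OEx and 0.726 to 0.815 times in Ctrl. Comparisons of the groups on the deposited scale carry this difference. The most abundant gene took up to 22.0% of the reads in Ctrl mice against at most 1.12% in OEx mice. Notch1 and Hes1, the check of the labels, were higher in OEx by 3.30 and 2.21 on the log2 scale (limma FDR 1.01e-04 and 2.35e-05). Mice numbered 3 stood apart. The summed FPKM of 10 fibroblast marker genes was 301 and 303 in OEx 1 and OEx 2 but 37.2 in OEx 3, and the sum of seminal vesicle genes was 16128 in Ctrl 3 against at most 4.36 elsewhere. Mice 1 and 2 of each group were in turn very alike: their reads differed by a chi-square of 3.67 (OEx) and 2.93 (Ctrl) per degree of freedom, above counting noise, against 50.4 to 86.7 for pairs that included mouse 3. No label says whether mice 1 and 2 share an origin, and p-values measure only the spread between these samples.

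Differences between OEx and Ctrl were tested with limma on log2(FPKM + 1), in rows that averaged 1 FPKM or more, and a gene was called at a false discovery rate (FDR) under 0.05 with more than 2-fold change on that scale, the criteria of the study. Of the 10 members 6 entered the test, Fgf2 only through its OEx level, and 2 were called, Fgf2 higher and Met lower in OEx. Over all 12833 rows tested 28.6% were called, 12.9% higher and 15.7% lower. At the FDR alone 6 of 6 tested members passed, 4 higher and 2 lower, where 67.2% of all tested rows did, 30.7% higher and 36.5% lower. The OEx and Ctrl values did not overlap for 8 of the 10 members, against 48.2% of all rows above 0 in at least 1 mouse and 72.4% of the tested rows, and 5 members had all OEx mice above all Ctrl mice against 27.2% of those rows. These shares place the members' counts against a background in which much of the transcriptome differed.

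**Figure D1:**
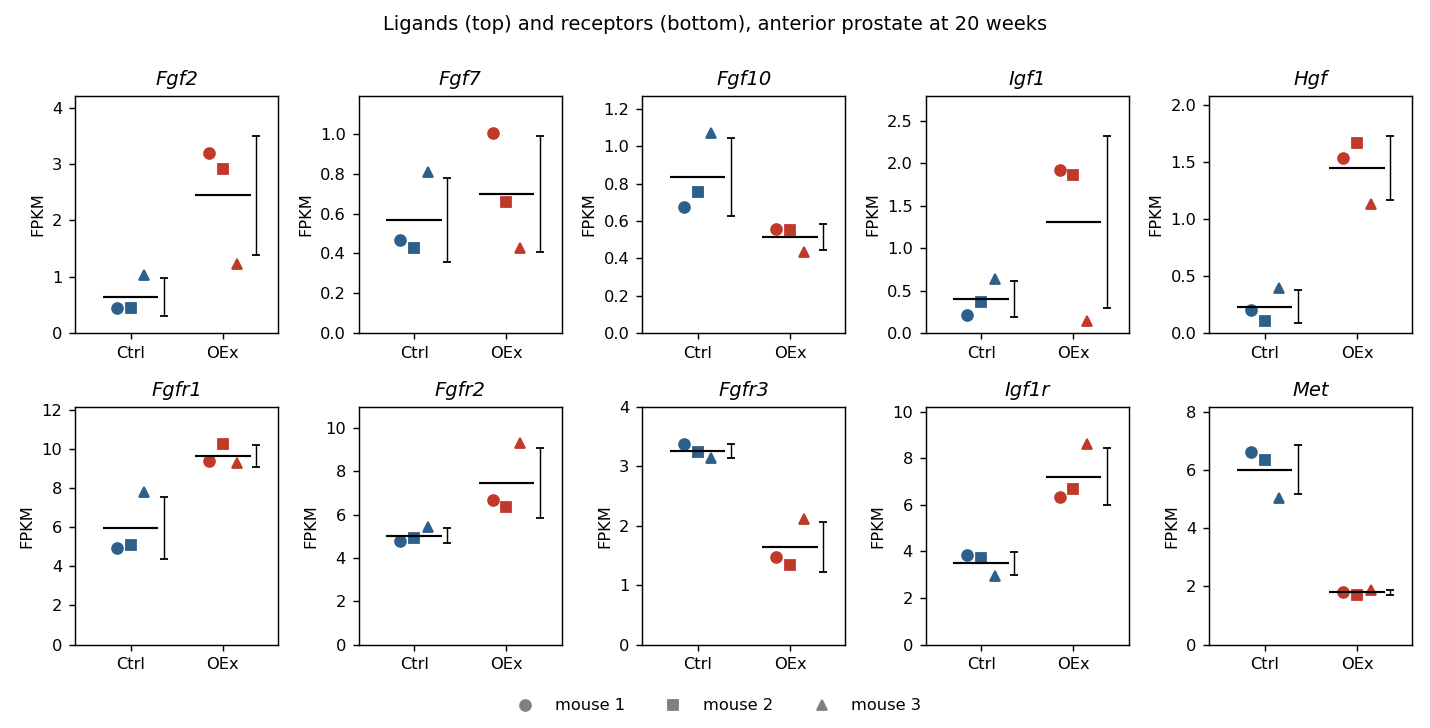
FPKM of each member in each mouse, with 1 panel per gene, Ctrl mice in blue and OEx mice in red, and with the y axes starting at 0. Symbols mark the mouse number, horizontal lines the group mean and the bars beside them 1 SD (n = 3). Met separates the groups most cleanly, while the Igf1 value of OEx 3, 0.140 FPKM from 25 reads, lies below every Ctrl mouse, though level with Ctrl 1 within counting error.

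Hgf (chr5:16553495-16620152), which encodes the ligand of MET, showed the largest ratio between group means among the members. Its level was 1.54, 1.67 and 1.13 FPKM in OEx 1, 2 and 3 and 0.200, 0.107 and 0.394 FPKM in Ctrl 1, 2 and 3. All OEx mice were above all Ctrl mice, and the means, 1.45 ± 0.282 and 0.234 ± 0.146 FPKM (SD, n = 3 each), stood 6.20-fold apart. The Ctrl values rest on 10 to 43 reads and the OEx values on 147 to 275 reads, so the Ctrl level is the less precise. Positions of genes are those of GENCODE M21 on GRCm38, all on the + strand where given. In Ctrl 2 the 10 reads correspond to 0.107 FPKM with an exact Poisson 95% interval of 0.0515 to 0.198 FPKM, which covers counting error only. Hgf lay under the minimum of 1 FPKM. With rows of at least 10 reads in every mouse instead, limma gave a log2 difference of 0.99 (SE 0.125, FDR 4.24e-04), just inside 2-fold on the log2(FPKM + 1) scale, where 23.2% of 12924 rows were called and 65.7% passed the FDR alone. That pseudocount compresses low values, and limma-voom on the recovered reads, an alternative chosen after seeing the data, gave 2.77 (SE 0.412, FDR 7.82e-04) and called 5 members, where 35.5% of all rows were called. In the limma fit with at least 10 reads, the difference was 1.09 without OEx 3 and 1.08 without Ctrl 3, both past 2-fold. It stayed inside 2-fold without OEx 1 (0.96), OEx 2 (0.92), Ctrl 1 (0.97) or Ctrl 2 (0.91). Of the exonic bases of Hgf 6.74% are shared with the annotated transcript Gm43489.

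The Notch intracellular domain acts on DNA through RBPJ, which binds sites with the core letters TGGGAA, so the promoters of the members were searched for those letters on both strands (TTCCCA on the opposite one), in RefSeq windows (GRCm38.p6) from 250 bases before to 50 bases after each start. The letters occurred in 7 of 11 windows, belonging to 7 of the 9 member genes in the table, and in 25.6% of all 32851 windows. A match describes the letters and is not evidence of binding. The windows of Fgf2 and Fgfr3 held none, nor did another start window of Hgf (chr5:16553651-16553950), and Fgfr1 is not in the table. The 250 bases before the start of Hgf, at chr5:16553245-16553494 on the + strand and outside annotated exons, are shown because Hgf had the largest ratio, and the 30-base stretches of the other 6 genes are shown for comparison, with the matching letters in capitals.
Hgf chr5:16553245-16553494 (+ strand): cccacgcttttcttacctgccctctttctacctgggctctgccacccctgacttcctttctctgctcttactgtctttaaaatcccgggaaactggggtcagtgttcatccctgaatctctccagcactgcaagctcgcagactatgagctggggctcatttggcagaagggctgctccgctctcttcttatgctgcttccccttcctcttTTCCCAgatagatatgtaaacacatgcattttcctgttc
Fgf7 chr2:126034433-126034462 (+ strand): tttgtaacggctTGGGAAtcagaggtctgt
Fgf10 chr13:118714531-118714560 (+ strand): ttttctctggcgTTCCCAgcagcttagggt
Igf1 chr10:87861008-87861037 (+ strand): ggctcaaggtatTTCCCAgtgcctgagcca
Fgfr2 chr7:130266895-130266924 (- strand): gtagattgccttTTCCCAtggcagccacat
Igf1r chr7:67952274-67952303 (+ strand): gtgtcctggattTGGGAAggagctcgcggc
Met chr6:17463918-17463947 (+ strand): gcagggcgcgtgTGGGAAggggcggagcag
The Hgf match starts 39 bases before the start site. The stretches of Met and Igf1 lie in annotated exons and the others do not. Genes that carried the letters included members that were higher in OEx (Hgf, Igf1r) and Met, which was lower.

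Fgf2 (chr3:37348346-37410108), a broadly acting FGF without a classical secretion signal, had the highest level of the 5 ligand members in every OEx mouse. In OEx 3 it was level with Hgf within counting error (Poisson 95% intervals 1.04 to 1.45 and 0.957 to 1.33 FPKM). It measured 3.19, 2.91 and 1.23 FPKM in OEx 1, 2 and 3 and 0.448, 0.444 and 1.04 FPKM in Ctrl 1, 2 and 3. The groups did not overlap, although OEx 3 and Ctrl 3 lay close together. The means were 2.44 ± 1.06 and 0.643 ± 0.342 FPKM (SD, n = 3 each), a ratio of 3.80, so Fgf2 passed the minimum of 1 FPKM only through its OEx level. With at least 10 reads in every mouse instead, it was also called (FDR 0.0109). In the main fit limma gave a log2 difference of 1.03 (SE 0.279, FDR 0.0152). This call did not hold without OEx 1 (0.87, FDR 0.0517), OEx 2 (0.92, FDR 0.0538), Ctrl 1 (0.95, FDR 0.0501) or Ctrl 2 (0.95, FDR 0.0506), nor when mice 1 and 2 of each group were averaged (0.81, FDR 0.124). Without both mice numbered 3 it was 1.49 (FDR 1.30e-04). The gene shares 13.2% of its exonic bases with Gm43439 and, on the other strand, Nudt6, and whether the counting used strand is not given in the sources used here, so reads of these genes could not be separated there.

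Igf1 (chr10:87858265-87937042), which encodes the circulating and local IGF ligand, split the OEx mice. Its level was 1.92, 1.87 and 0.140 FPKM in OEx 1, 2 and 3 and 0.218, 0.367 and 0.638 FPKM in Ctrl 1, 2 and 3. OEx 1 and OEx 2 were above all Ctrl mice, OEx 3 was below all of them, and the highest OEx value was 13.8 times the lowest. OEx 3 rests on 25 reads and Ctrl 1 on 27 reads. Their Poisson 95% intervals overlap (0.0905 to 0.206 and 0.144 to 0.317 FPKM), so the order of OEx 3 and Ctrl 1 is within counting error. The two-sided exact permutation test gave p = 0.4, where the smallest p for 3 against 3 mice is 0.1, and limma with the minimum of 10 reads gave 0.60 (95% interval -0.25 to 1.45, FDR 0.177). Without OEx 3 the same fit gave 1.05 (FDR 8.04e-04).

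The fibroblast markers also differed between the OEx mice, but not all in the way Igf1 did. Their sum was 301, 303 and 37.2 FPKM in OEx 1, 2 and 3 and 111, 110 and 198 FPKM in Ctrl 1, 2 and 3, and none of the 10 markers passed the FDR. All 10 markers were lower in OEx 3 than in every Ctrl mouse, whereas 4 of the 10 were above every Ctrl mouse in both OEx 1 and OEx 2. The collagen genes Col1a1, Col1a2 and Col3a1 were among these 4 and made up 64.3% and 66.5% of the sum in OEx 1 and OEx 2, 34.0% in OEx 3 and 22.9% to 24.4% in Ctrl. Other markers did not follow, and Dcn, a matrix proteoglycan, was 37.2, 34.0 and 10.05 FPKM in OEx and 24.6, 22.6 and 42.8 FPKM in Ctrl. Per 100 FPKM of fibroblast markers, Igf1 was 0.639, 0.616 and 0.376 in OEx and 0.196, 0.334 and 0.322 in Ctrl, with no overlap of the groups. The Igf1 value of OEx 3 rests on 25 reads and that of Ctrl 2 on 47 reads, and counting error was not included. The separation also depended on how the markers were weighted. Relative to each marker in turn, Igf1 was without overlap for 3 of the 10 and Hgf for 7 of the 10. Hgf stayed high in OEx 3 while the fibroblast sum was low, with 3.04 per 100 FPKM there against 0.512 and 0.552 in OEx 1 and 2 and 0.0980 to 0.199 in Ctrl. Leukocyte markers also differed between the OEx mice, with sums of 34.3, 34.6 and 9.18 FPKM against 9.11 to 16.6 FPKM in Ctrl. The part of these cell types in the ligand levels was not tested.

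**Figure D2:**
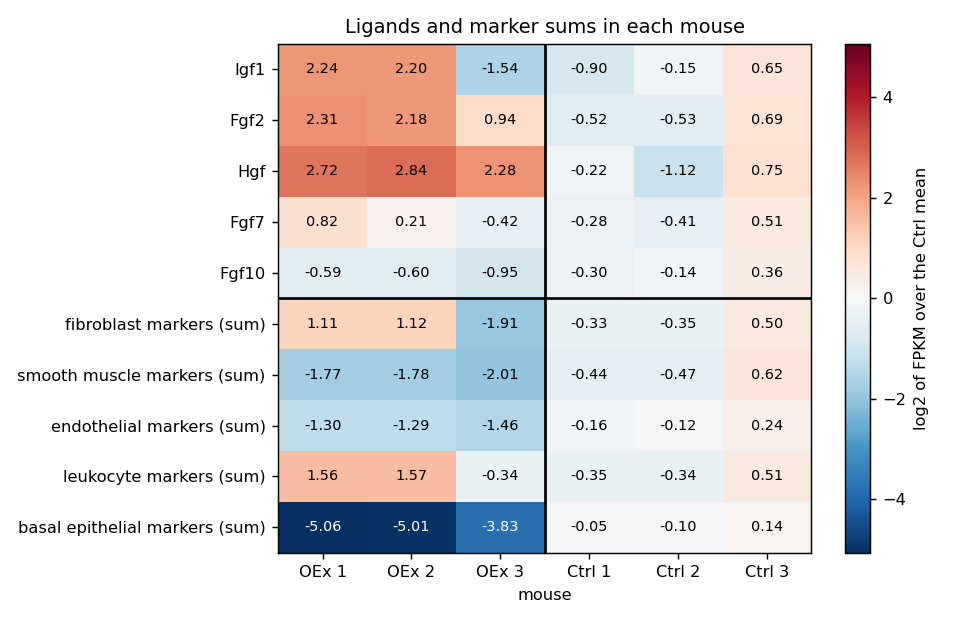
Level of the 5 ligands and summed level of 5 marker lists in each mouse, as log2 of FPKM over the Ctrl mean, with red above and blue below that mean. In OEx 3 Igf1 (-1.54) and the fibroblast sum (-1.91) are below the Ctrl mean while Hgf (2.28) is above it.

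Fgf7 and Fgf10, the stromal FGFs that act on epithelium, were low in all mice, at 18 to 75 reads each. Fgf7 was 1.003, 0.660 and 0.426 FPKM in OEx 1, 2 and 3 and 0.468, 0.428 and 0.810 FPKM in Ctrl 1, 2 and 3. The groups overlapped (exact permutation p = 0.7), and the log2 difference with the minimum of 10 reads was 0.11 (95% interval -0.25 to 0.46, limma FDR 0.553). Fgf10 was 0.556, 0.551 and 0.433 FPKM in OEx and 0.678, 0.755 and 1.07 FPKM in Ctrl. Each OEx mouse lay under each Ctrl mouse, with a log2 difference of -0.27 (SE 0.101, limma FDR 0.0473) that is within 2-fold and that turned to 0.088 when the values were scaled to the sum over all genes. It lost the FDR without OEx 1, OEx 2, OEx 3, Ctrl 2 or Ctrl 3 (FDR 0.0748 to 0.0993).

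The order of the ligand genes by FPKM, a scale per length, differed between the groups. Fgf2 came first in each OEx mouse and Fgf10 in each Ctrl mouse, and Hgf came last in each Ctrl mouse. Poisson 95% intervals of the first and next ligand overlapped in OEx 3 and in each Ctrl mouse, so these orders are within counting error. In Ctrl 3 they were 0.844 to 1.34 FPKM for Fgf10 and 0.851 to 1.25 FPKM for Fgf2. The intervals of Hgf and Igf1 also overlapped in Ctrl 1 and Ctrl 3. The 5 ligands summed to 8.22, 7.66 and 3.37 FPKM in OEx and 2.01, 2.10 and 3.95 FPKM in Ctrl, and these sums overlapped because OEx 3 fell below Ctrl 3. Smooth muscle, another stromal source, was lower in OEx, where 8 of 10 markers were called lower and the sums were 444 to 526 FPKM against 1298 to 2764 FPKM. Acta2, the smooth muscle actin, fell by 1.84 on the log2 scale (limma FDR 0.00130), and by 0.94, inside 2-fold, when scaled to the sum over all genes. Per 100 FPKM of smooth muscle markers all 5 ligands were higher in OEx without overlap, including Fgf10, which was lower by FPKM, because the denominator was lower. Hgf, for example, was 0.255 to 0.320 in OEx and 0.00828 to 0.0152 in Ctrl on that scale. Igf1 was barely apart there, at 0.0315 in OEx 3 (25 reads) and 0.0282 in Ctrl 2 (47 reads), and counting error was not included. Relative to each smooth muscle marker in turn, Fgf2, Fgf7 and Hgf were without overlap for all 10, but Fgf10 and Igf1 for 6 of the 10.

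Among the receptors, Met (chr6:17463800-17573980) showed the clearest difference. It measured 1.81, 1.70 and 1.87 FPKM in OEx 1, 2 and 3 and 6.61, 6.36 and 5.04 FPKM in Ctrl 1, 2 and 3. The groups did not overlap, and the Ctrl mean, 6.002 ± 0.843 FPKM, was 3.35 times the OEx mean, 1.79 ± 0.0839 FPKM (SD, n = 3 each). Limma gave -1.32 (SE 0.117, FDR 1.32e-04). The call held without each mouse in turn and with mice 1 and 2 averaged (-1.26, FDR 0.00655). Scaled to the sum over all genes the difference was -0.64 and no longer 2-fold. MET is an epithelial receptor, and all 4 basal epithelial markers were called lower in OEx, with sums of 6.79, 7.05 and 15.9 FPKM against 212 to 249 FPKM. Luminal markers went both ways. Of the 6, 2 were called lower, where 15.7% of all tested rows were, and at the FDR alone 4 were lower and 1 was higher. The part of these cell types in the Met level was not tested.

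Igf1r (chr7:67952827-68233668), the receptor of IGF1, moved the other way. It was 6.33, 6.70 and 8.60 FPKM in OEx 1, 2 and 3 and 3.85, 3.70 and 2.94 FPKM in Ctrl 1, 2 and 3. All OEx mice were above all Ctrl mice, the ratio of means was 2.06, and limma gave 0.87 (SE 0.141, FDR 0.00171), under the 2-fold criterion on the log2(FPKM + 1) scale. The OEx mouse with the lowest Igf1, OEx 3, had the highest Igf1r. The ratio of Igf1r to Met was 3.50 to 4.60 in OEx and 0.582 to 0.583 in Ctrl.

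Fgfr1, the main receptor of FGF2, was 9.36, 10.3 and 9.29 FPKM in OEx 1, 2 and 3 and 4.93, 5.11 and 7.77 FPKM in Ctrl 1, 2 and 3. The groups did not overlap, and the log2 difference was 0.64 (SE 0.163, limma FDR 0.0120). Fgfr2, whose epithelial form binds FGF7 and FGF10, was 6.68, 6.35 and 9.32 FPKM in OEx and 4.77, 4.90 and 5.44 FPKM in Ctrl. It also did not overlap, at 0.47 (SE 0.146, limma FDR 0.0261), but lost the FDR without Ctrl 1 (0.44, FDR 0.0781) or Ctrl 2 (0.46, FDR 0.0728). With mice 1 and 2 averaged, Fgfr1 and Fgfr2 both missed the FDR (0.101 and 0.0893).

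Fgfr3 was lower in OEx, unlike Fgfr1 and Fgfr2. It was 1.48, 1.34 and 2.12 FPKM in OEx 1, 2 and 3 and 3.37, 3.25 and 3.14 FPKM in Ctrl 1, 2 and 3, so each OEx mouse lay under each Ctrl mouse. Limma gave -0.70 (SE 0.135, FDR 0.00365), a difference that shrank to -0.07 (FDR 0.661) when scaled to the sum over all genes. With mice 1 and 2 averaged it was -0.62 (FDR 0.0508). The 2 other FGF receptor genes, looked at after their values were seen, also had lower values in OEx without overlap. Fgfrl1 was at most 5.08 FPKM in OEx and at least 6.83 FPKM in Ctrl (-0.47, limma FDR 0.00275), and Fgfr4 was 0.0425 to 0.0864 and 0.158 to 0.353 FPKM, from 3 to 19 reads per mouse and without a test. Fgfr3 shares 13.9% of its exonic bases with G630022F23Rik on the other strand. Values per gene do not separate the epithelial and mesenchymal splice forms of the FGF receptors.

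**Figure D3:**
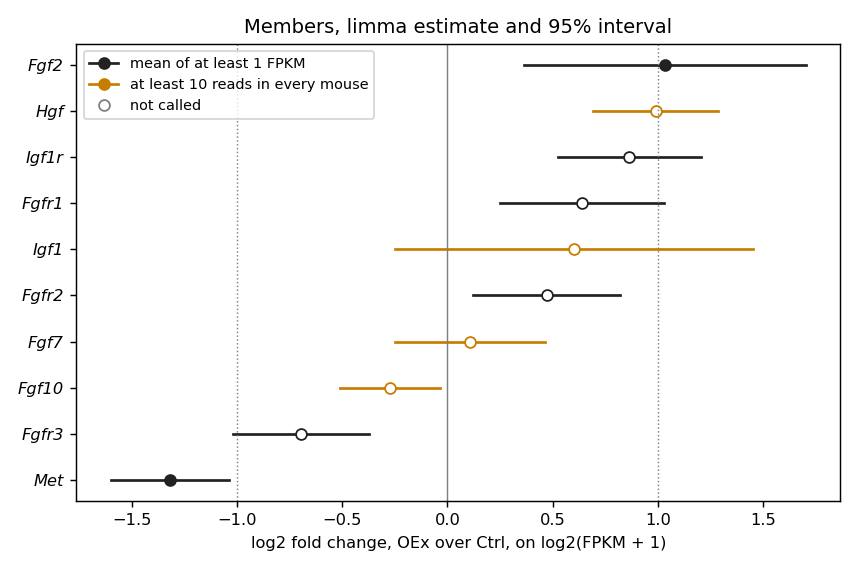
Log2 difference between OEx and Ctrl on log2(FPKM + 1) for each member with its limma 95% interval, for the 6 members that averaged 1 FPKM or more (black) and the 4 below it, tested with at least 10 reads in every mouse (orange). Filled points were called, the dotted lines mark 2-fold, and the intervals of Igf1 and Fgf7 span 0.

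The receptor genes summed to 25.7, 26.4 and 31.2 FPKM in OEx and 23.5, 23.3 and 24.3 FPKM in Ctrl, and on the deposited scale the make-up of this sum differed more than its size. Met took 5.99% to 7.05% of it in OEx and 20.7% to 28.1% in Ctrl. It was the highest receptor in Ctrl 1 and Ctrl 2, behind Fgfr1 and Fgfr2 in Ctrl 3, and among the lowest 2 in each OEx mouse. The ratio of Fgfr2 to Fgfr3 was 4.39 to 4.75 in OEx and 1.41 to 1.73 in Ctrl. Fgfr1 and Fgfr2 changed order between OEx mice, with Fgfr2 level with Fgfr1 in OEx 3 within counting error. These shares and ratios within a mouse do not depend on the scaling of the libraries.

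**Figure D4:**
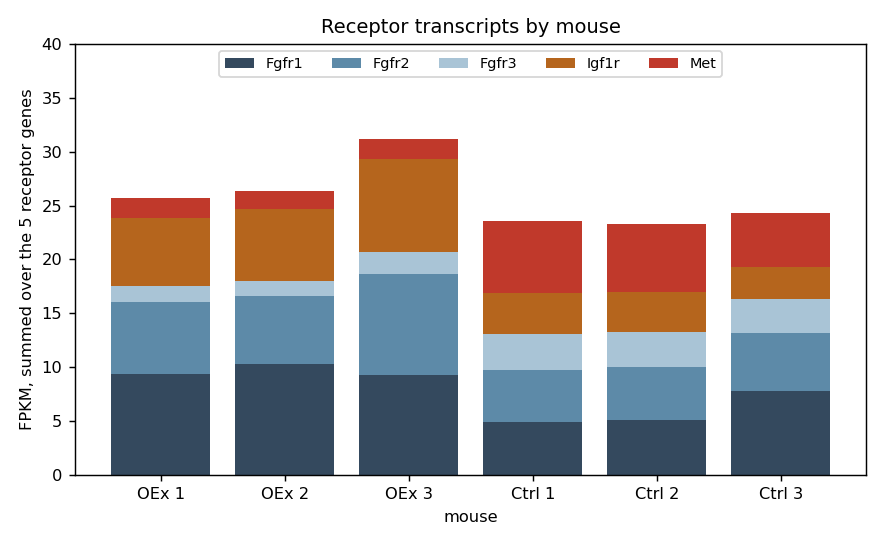
FPKM of the 5 receptor genes stacked for each mouse, with the y axis starting at 0. The Met part is 5.99% to 7.05% of the stack in OEx mice and 20.7% to 28.1% in Ctrl mice.

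Beyond the members, 8 lists of other genes of these pathways held 85 genes, of which 45 were tested. Of these 3 were called higher (6.67%) and 5 lower (11.1%), beside 12.9% and 15.7% of all tested rows, and their median log2 difference was -0.14 beside -0.08 over all tested rows. At the FDR alone 11 were higher and 13 lower.

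Among 19 other FGF ligands only Fgf1 averaged 1 FPKM or more, and 8 were at 0 in all mice. Fgf1 was 28.3 to 43.6 FPKM across the 6 mice, far above the 3 FGF members, and did not pass (0.16, limma FDR 0.358). Scaled to the sum over all genes it was called higher (1.04, limma FDR 0.00104). Fgfbp1, a carrier that releases FGFs from matrix, was 25.1, 23.0 and 4.14 FPKM in OEx and 1.06, 0.853 and 8.72 FPKM in Ctrl. Its groups overlapped through the mice numbered 3, and it missed the FDR (2.15, limma FDR 0.0611). It was called higher without OEx 3 (2.91, limma FDR 0.0166), without Ctrl 3 (2.92, limma FDR 0.0171) and scaled to the sum over all genes (2.85, limma FDR 0.0175).

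Feedback inhibitors and response genes of FGF signalling went both ways. Spry1, a feedback inhibitor, was 5.53 to 6.98 FPKM in OEx and 21.3 to 22.0 FPKM in Ctrl and was called lower (-1.61, limma FDR 4.44e-05), though inside 2-fold when scaled to the sum over all genes (-0.79). Its relative Spry2 was higher in OEx, 17.6 to 25.6 against 9.42 to 9.996 FPKM, just under 2-fold (0.98, limma FDR 0.00121). Spry2 was past 2-fold without OEx 1 (1.07), OEx 2 (1.06) or Ctrl 3 (1.003), and under each of the 3 scalings (1.24 to 1.82). The same held with a pseudocount of 0.1 (1.05), with limma-voom (1.05) and relative to stromal markers (1.66). Etv4, a transcription factor induced by FGF signalling, was called lower (-1.09, limma FDR 0.0199), with 0.921, 1.48 and 0.214 FPKM in OEx and 2.27, 2.21 and 4.28 FPKM in Ctrl. That call did not hold without OEx 3 (-0.81), without Ctrl 3 (-0.85, limma FDR 0.0548), under any of the 3 scalings (-0.55 to -0.92) or with the replicate block (limma FDR 0.0687). Etv4 passed the minimum of 1 FPKM only through its Ctrl level, since its OEx mean was 0.871 FPKM. Of the 9 tested genes of this list 2 were called lower and none higher in the main fit, and at the FDR alone 4 were lower and 3 higher. Scaled to the sum over all genes, Spry2 was called higher and neither Spry1 nor Etv4 was called lower.

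Of 8 tested heparan sulfate core proteins, which hold FGFs and HGF near their receptors, 6 did not pass the FDR, 1 was called lower and none was called higher. Gpc1 was called lower (-1.13, limma FDR 0.0225), with 3.94, 3.82 and 1.73 FPKM in OEx against 6.06, 6.12 and 12.7 FPKM in Ctrl. It lost the call without OEx 3 (-0.86, limma FDR 0.0544), without Ctrl 3 (-0.82), under the 3 scalings (-0.39 to -0.90) and with the replicate block (limma FDR 0.0777). The abundant Sdc1 and Sdc4 differed by 0.32 and 0.15 and missed the FDR (limma FDR 0.0725 and 0.183), and both were called higher when scaled to the sum over all genes (1.195 and 1.04).

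IGF binding proteins, which keep IGFs from or carry them to their receptor, were called lower for Igfbp5 (-1.16, limma FDR 0.0104) and Igfbp6 (-1.50, limma FDR 0.0416). Igfbp5 was 24.3, 25.2 and 11.3 FPKM in OEx and 43.6 to 44.2 FPKM in Ctrl. Igfbp6 was 47.1, 48.0 and 14.6 FPKM in OEx and 72.8, 68.6 and 161 FPKM in Ctrl, so both were lowest in OEx 3. Without OEx 3 neither was called (-0.81 for Igfbp5 and -0.95 for Igfbp6), and neither was under any of the 3 scalings. The Igfbp6 call was also lost without Ctrl 1 (limma FDR 0.0624), Ctrl 2 (0.0549) or Ctrl 3 (-1.11, limma FDR 0.117) and with the replicate block (limma FDR 0.113). Igfbp3 passed the FDR without reaching 2-fold (-0.92, limma FDR 0.00638), and did reach it without OEx 1 (-1.04) or Ctrl 1 (-1.01). The values of Igfbp2, Igfbp4 and Igfbp7 did not pass (limma FDR 0.799, 0.539 and 0.379), and each turned sign under another scaling or without OEx 3. Stc2, an inhibitor of the proteases that cut IGF binding proteins, was called higher (1.06, limma FDR 0.00298), at 6.72 to 10.99 FPKM in OEx and 2.71 to 3.94 FPKM in Ctrl, but was inside 2-fold without OEx 3 (0.87) or Ctrl 3 (0.94). Igf2r, which clears IGF2, did not pass (-0.09, limma FDR 0.603).

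Of the proteases that activate HGF, Hpn (hepsin) and Hgfac (HGF activator) were called higher, 2 of the 8 tested genes of their list, and none was called lower. Hpn was 13.8, 16.4 and 15.1 FPKM in OEx and 4.13, 3.48 and 6.27 FPKM in Ctrl (1.54, limma FDR 4.40e-04). Hgfac was 2.09, 2.41 and 2.65 FPKM in OEx and 0.188, 0.113 and 0.579 FPKM in Ctrl (1.40, limma FDR 4.77e-04). The groups did not overlap for either gene. Hgfac passed the minimum of 1 FPKM only through its OEx level, and its Ctrl values rest on 8, 5 and 30 reads, so it was not in the test with at least 10 reads in every mouse. St14 (matriptase) was lower within 2-fold (-0.48, limma FDR 0.00723) but turned sign under scaling to the sum. The inhibitors Spint1 and Spint2 did not pass in the main fit (limma FDR 0.271 and 0.213). Scaled to the sum over all genes, both were called higher (1.08 and 1.198). Of the 5 tested genes of the HGF family and MET adaptors none was called, and at the FDR alone 3 were higher (Cbl, 0.52, Cblb, 0.41, and Ranbp9, 0.43, named here after their values were seen) and 1 was lower. The adaptor Gab1 missed the FDR in the main fit (0.32, limma FDR 0.0568) and was called higher when scaled to the sum over all genes (1.16). Grb2 was lower within 2-fold (-0.35, limma FDR 0.0172) and turned sign under scaling to the sum.

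**Figure D5:**
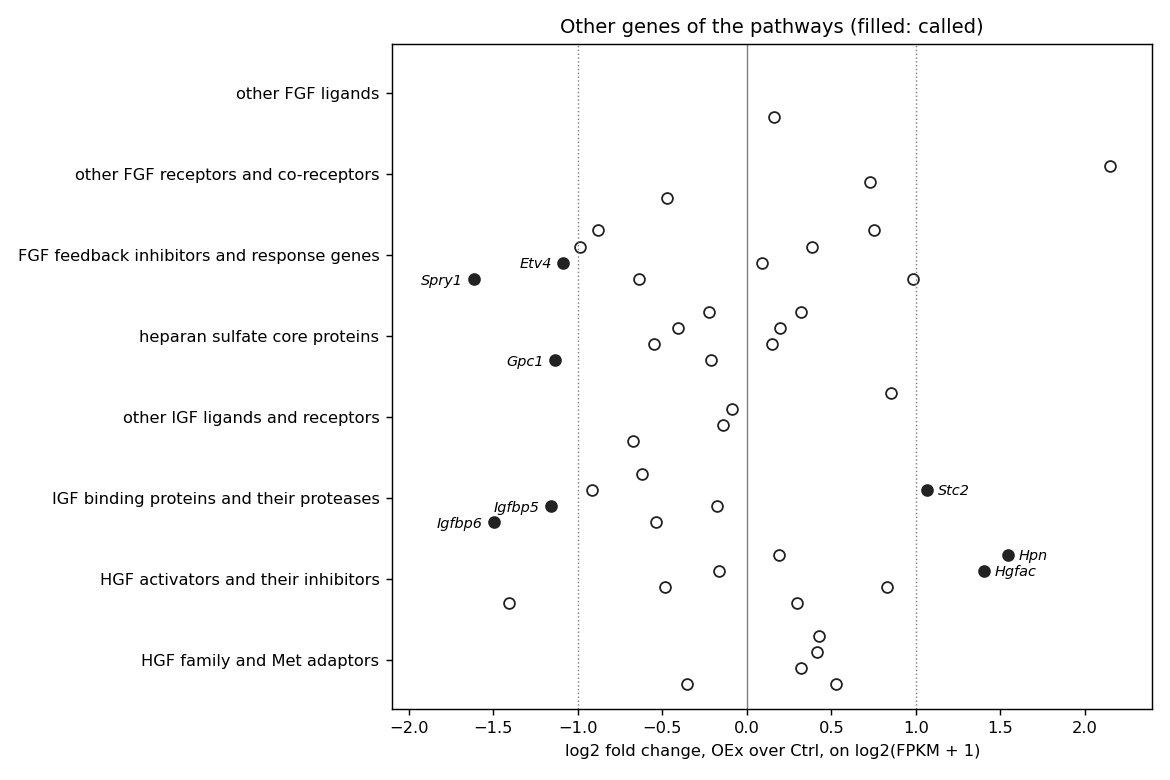
Log2 difference between OEx and Ctrl for the 45 tested genes of the 8 other pathway lists, 1 point per gene, with called genes filled and named and dotted lines at 2-fold. Hpn, Hgfac and Stc2 lie right of the upper line and Spry1, Etv4, Gpc1, Igfbp5 and Igfbp6 left of the lower one. The open points outside the lines missed the FDR.

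The genes nearest in profile to each ligand were found by the root mean square difference of mean-centred log2(FPKM + 1) over the 6 mice. For Fgf2 they were Ap1s2 (0.0431) and Pip4k2a (0.0488), for Igf1 Bmp1 (0.0592) and Nrros (0.0685), and for Hgf Serpine2 (0.0528) and Gmip (0.0557). The pseudocount compresses low values, so genes near on this scale can differ in fold change. Bmp1, a procollagen protease, was also lower in OEx 3 than in OEx 1 and 2. It was 7.54, 7.55 and 2.32 FPKM in OEx and 2.33 to 3.87 FPKM in Ctrl, a narrower spread than the 13.8-fold range of Igf1 within OEx. Serpine2, a secreted protease inhibitor, was 45.3 to 53.0 FPKM in OEx, OEx 3 included, and 22.0 to 30.01 FPKM in Ctrl. That is a smaller ratio than the 6.20-fold of Hgf. For Fgf7 the nearest were Chsy1 (0.0690) and Lats2 (0.0698), and for Fgf10 Snhg15 (0.0237) and Nsa2 (0.0346).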

How the data were processed

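Total RNA of the anterior prostate of 6 mice (3 OEx, 3 Ctrl) was sequenced as TruSeq libraries. The submitters' processing notes name CASAVA, HISAT2 2.0.5, StringTie 1.3.3b and featureCounts 1.5.0-p3. The genome build and annotation of the tables are not given in the sources used here. The authors deposited 1 table of FPKM per mouse. Reads per gene were recovered from the deposited FPKM with GENCODE M21 (GRCm38) exon lengths, and 96.9% to 97.5% of values came out whole within 0.05 reads. Limma-voom took the totals behind the deposited FPKM, not the recovered reads, as library sizes. A total of 751 rows share a symbol with another row.

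The main test was limma 3.58.1 (R 4.3.3) on log2(FPKM + 1), with an intensity trend, group as the only term, rows that averaged 1 FPKM or more and Benjamini-Hochberg adjustment. A gene was called at FDR under 0.05 and more than 2-fold. Exact permutation tests were two-sided over the 20 assignments of mice. The fit was tested on simulated data, where 80.5% of 200 genes changed 3-fold were recovered and 5 of 12267 unchanged genes were called. That simulation drew each mouse independently with the same spread setting for every gene. It held no alike mice 1 and 2 and no outlying mouse 3, so its rates need not hold for these data. Alternatives covered the pseudocount, filter, scaling, trend, limma-voom, replicate block, a scale relative to stromal markers and leaving out mice. Fits without both mice numbered 3, with mice 1 and 2 averaged, limma-voom with at least 10 reads, and the block or leave-one-out fits with that filter were added after seeing the data.

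The members and gene lists were chosen with earlier results of these data known. Besides members, the text names Notch1 and Hes1, up to 3 called genes per pathway list with the largest change, list genes that averaged 10 FPKM or more, the 2 most abundant genes of marker lists and the 2 nearest profiles per ligand. Promoter sequences are from RefSeq.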

Additional observations from a re-analysis of the deposited data

How the results depend on the processing

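The 2 member calls depended on the setting. Scaling to the sum over all genes, to that sum without the 20 most abundant genes, and limma-voom on recovered reads each gave 4 calls, limma-voom with at least 10 reads gave 5 and the FDR alone gave 6. Averaging mice 1 and 2 of each group gave 1 call, Met. Leaving out each mouse gave 1 to 2 calls, and with at least 10 reads 1 without OEx 1, OEx 2, Ctrl 1 or Ctrl 2 and 4 without OEx 3. For the pathway lists the 8 calls became 14 (pseudocount of 0.1), 19 (sum), 15 (limma-voom), 19 (limma-voom with at least 10 reads), 24 (FDR alone), 5 to 11 without each mouse, and, with at least 10 reads, 4 without OEx 3 and 5 without Ctrl 3. The 3674 calls over all genes became 8621 at the FDR alone. Scaling moved the median of all tested rows from -0.08 to 0.65 (sum), 0.45 (without the 20 most abundant genes) and 0.15 (upper quartile), and the calls from 1653 higher and 2021 lower to 4458 and 504, 3477 and 717, and 2341 and 1326.

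Same-numbered mice did not deviate together (correlations of -0.19, -0.19 and -0.31), but with so few mice this does not settle whether the numbers pair them. The replicate block gave 1 member call and 5 pathway calls, left Fgf2 at 1.03 with an FDR of 0.0557, and with at least 10 reads gave 4 pathway calls.

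For Fgf2 the difference was 0.81 with mice 1 and 2 averaged and 0.87 to 1.32 without each mouse. With at least 10 reads it missed 2-fold without OEx 1 (0.87), OEx 2 (0.92), Ctrl 1 (0.95) or Ctrl 2 (0.95). Scaled to the sum over all genes, the differences were 0.46 (Fgf7), 0.088 (Fgf10), 1.43 (Fgfr1), 1.24 (Fgfr2), 1.604 (Igf1r), 1.35 (Hgf) and -0.64 (Met), and without the 20 most abundant genes 0.36, -0.0105, 1.22, 1.03, 1.40, 1.25 and -0.82. The upper quartile gave 1.10 for Igf1r. A pseudocount of 0.1 gave -0.59 (Fgf10), 1.02 (Igf1r) and 2.29 (Hgf). Limma-voom gave -1.03 (Fgfr3) and 1.05 (Igf1r), and with at least 10 reads -1.03 (Fgfr3), 1.05 (Igf1r), -0.69 (Fgf10), 1.18 (Igf1) and 2.77 (Hgf). Relative to the fibroblast and smooth muscle markers the differences were 0.78 (Fgf7), 0.40 (Fgf10), 1.28 (Igf1), 1.54 (Igf1r), 1.66 (Hgf) and -0.65 (Met, FDR 0.447). Without both mice numbered 3 they were 0.33 (Fgf7), -0.14 (Fgf10) and 1.18 (Hgf).

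Signs reversed for 6 other genes. Scaled to the sum, Igf2r was 0.76, Igfbp2 0.72, Igfbp4 0.22, Igfbp7 0.36, St14 0.40 and Grb2 0.51. Without the 20 most abundant genes, Igf2r was 0.53, Igfbp2 0.48, Igfbp7 0.11, St14 0.16 and Grb2 0.28. With the upper quartile, Igf2r was 0.18 and Igfbp2 0.10. Relative to stromal markers, Igf2r was 0.59, Igfbp2 0.50, Igfbp4 0.055, Igfbp7 0.13, St14 0.19 and Grb2 0.32. Without each mouse, Igfbp2 ranged from -0.47 to 0.36 (above 0 without OEx 3 or Ctrl 3), Igfbp4 from -1.14 to 0.43 and Igfbp7 from -0.86 to 0.095 (both above 0 without OEx 3). The cause of these shifts was not tested beyond what each setting itself changes. The permutation tests were not repeated with mice left out. Reads limit Hgf, Igf1, Fgf7 and Fgf10 most, and a count of 3 reads corresponds to 0.161 to 0.203 CPM.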

Other observations

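A few genes outside the rule for named genes were picked after their values were seen. Fgf16, a FGF ligand under the minimum of 1 FPKM, was 0.884, 0.744 and 0.808 FPKM in OEx 1, 2 and 3 and 0.146, 0.0939 and 0.0400 FPKM in Ctrl 1, 2 and 3. These rest on 29, 28 and 24 reads in OEx and only 3, 2 and 1 reads in Ctrl. The groups did not overlap, which held for 48.2% of all rows above 0 in at least 1 mouse. Insr, the insulin receptor and nearest relative of Igf1r, was 6.93, 7.06 and 8.87 FPKM in OEx and 4.001, 4.11 and 3.19 FPKM in Ctrl (0.85, limma FDR 0.00130). Serpina5, an inhibitor of HGF-activating proteases, was listed at 0 in each OEx mouse and at 0.7001 to 1.04 FPKM in Ctrl.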
